A study of Homo sapiens with 8 samples.

Results

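The genes described here are 30 direct transcriptional targets of p53, taken by name from the raw count file of the study, which lists 58735 genes. None of them lies on chromosome 8. They were sorted by role into 11 genes of growth arrest and feedback on p53, 10 of cell death and survival, 3 of DNA repair and 6 of metabolism and mitochondrial upkeep. RNA was sequenced from EPC2-hTERT, a human esophageal epithelial line immortalised with telomerase. Of the 8 libraries, 4 came from control cells (CTRL) and 4 from cells with stable lentiviral overexpression of miR-155-5p (miR-155OE). Both groups grew for 2 days on inserts with pores of 0.4 µm, had 1.8 mM calcium for the following 5 days, and were then kept at the air-liquid interface. The labels do not say whether the lentiviral line is 1 clone, nor whether libraries came from separate cultures, so the p-values measure the spread between these libraries, which may be technical.

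The transcription factor p53 is kept scarce by the ubiquitin ligase MDM2, which is itself a p53 target, and it accumulates when DNA is damaged or growth is disturbed. It binds a pair of ten-base half-sites and raises genes that hold the cell cycle, repair DNA, adjust metabolism or start apoptosis. In squamous epithelium its relative p63 binds similar sites, and several of these genes also answer to other stress pathways and to differentiation.

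Total counts per library ran from 33.4 to 52.7 M and mitochondrially encoded genes took 1.01 to 2.92% of them. All 12 markers of squamous epithelium were present, whereas PTPRC of leukocytes had 1 read in all libraries together and COL1A2, COL3A1, DCN and LUM of fibroblasts had 0. Of 6 leukocyte markers, 1 (CD14) reached 1 CPM (counts scaled to the same library total in all samples), and the summed level was 7.58 to 9.67 CPM in CTRL and 8.68 to 15.1 CPM in miR-155OE. The fibroblast sum, almost all COL1A1, was 92.8 to 145 and 98.1 to 221 CPM. Neither MIR155HG nor MIR155 had a read in any library, and the overexpression could not be checked from these counts. The summed level of 11 suprabasal markers was 5286 to 11200 CPM in CTRL and 8404 to 25621 CPM in miR-155OE. These markers did not move one way. With the replicate block (same-numbered libraries treated as pairs) 5 rose, 3 fell and 3 did not pass edgeR's test. KRT4, KRT13 and CRNN, of the esophageal suprabasal layers, fell (log2 fold change −3.00, −2.27 and −1.41). KRT10, DSG1, DSC1, CNFN and KRT1 rose. KRT1, which with KRT10 makes up much of the sum, stood at 693, 986, 624 and 1504 CPM in CTRL replicates 1 to 4 and at 6632, 2678, 9626 and 6408 CPM in miR-155OE. In bulk RNA fewer cells of a type and less RNA per cell cannot be told apart, and the part that the makeup of the layered cultures has in the values below was not tested.

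To show what in these genes p53 and miR-155-5p could bind, both kinds of sequence were searched. The 20-base p53 consensus, written as paired half-sites with no spacer and allowing 2 mismatches outside the C and G of each core, was sought on both strands of RefSeq promoter windows (GRCh38.p14, 250 bases before to 50 after a gene's start). It was found in 4 of the 27 members with a window (14.8%) and in 98 of all 27303 genes with one (0.359%). The 4 bases at the core of each half-site are in capitals.
FAS, chr10:88991309-88991328, plus strand: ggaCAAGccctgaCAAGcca
DDB2, chr11:47214969-47214988, plus strand: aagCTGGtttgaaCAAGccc
AEN, chr15:88621306-88621325, plus strand: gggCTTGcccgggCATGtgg
MDM2, chr12:68808923-68808942, plus strand: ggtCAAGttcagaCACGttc
Each match lies inside the span of its gene in the count file. That of MDM2 touches an exon in 0 of 34 annotated transcripts (GENCODE release 29), that of FAS in 2 of 20, that of DDB2 in 1 of 16 and that of AEN in 1 of 6. A match describes letters only, and binding was not measured.

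The overexpressed microRNA is printed 5′ to 3′ with its seed, bases 2 to 8, in capitals.
hsa-miR-155-5p, RefSeq, chr21:25573983-25574006: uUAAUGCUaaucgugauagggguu
The complement of the seed, AGCATTA, and its variant GCATTAA were sought in 3′ UTRs, taking the longest that GENCODE release 29 (GRCh38) annotates for a gene, and printed sites are on the plus strand. They were present in 3 of the 30 members (10%) and in 17.6% of the 12510 tested genes with such a UTR. The members with a match were FBXO22 with 4, MDM2 with 3 and POLH with 1. Of these, only FBXO22 held a match followed by A. The matched bases are in capitals.
FBXO22, chr15:75935231-75935254: gtcttagaAGCATTAAaggagtat
MDM2, chr12:68843764-68843786: gtcctccaAGCATTAtttggagt
MDM2, chr12:68843833-68843855: gtcctcgaAGCATTAtttggagt
POLH, chr6:43614090-43614112: aactgtaaAGCATTAccaaactc
FBXO22 adapts an ubiquitin ligase that turns over chromatin and p53-bound proteins, and POLH is the polymerase that copies past ultraviolet lesions. FBXO22 averaged 39.8 ± 3.49 CPM in CTRL against 35.2 ± 1.90 CPM with the microRNA (SD, n = 4 each; log2 fold change −0.18, edgeR adjusted p = 0.249). POLH stood at 27.6 ± 1.42 and 24.4 ± 1.42 CPM (SD, n = 4 each; −0.18, adjusted p = 0.202). Neither passed the test. The genes that fell, described next, were all among the 27 without a match. As 27 of the 30 members lack one, most genes of any outcome would too. Whether a match bears on a fall was not tested.

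Setting miR-155OE beside CTRL shows how the groups differed, here in p53 target genes. Whether the microRNA itself or another difference between the lines lies behind a change was not tested. All 30 members had enough reads to be tested, though TP53I11 only marginally. On group alone, 1 member fell (GADD45A), 1 rose (BTG2) and 28 did not pass edgeR's quasi-likelihood test. That is 6.67% of the members, against 3.22% of the 15135 genes tested (2.17% higher and 1.05% lower). No member lies on chromosome 8, but the 15135 genes include those that do, here and in the shares below. With chromosome 8 left out of the fit, 0 of 30 members and 339 of 14604 genes passed on group alone. The fit with the replicate block was not run without chromosome 8. When same-numbered libraries were treated as pairs (the replicate block), 10 members fell, 2 rose and 18 did not pass. That is 40% of the members, against 12.6% of all genes (7.43% higher and 5.17% lower). The 10 that fell were TIGAR, FAS, PMAIP1, TP53I3, CCNG1, ZMAT3, GADD45A, DDB2, GDF15 and PLK3, each by 20.9% to 29.9%. The 2 that rose were BTG2 and PLK2. Leaving out pair 1 reduced the 12 blocked calls to 1 (GDF15) and all genes called to 623 of 15311. Leaving out pair 2 left 9 of 29 members tested, beside 2059 of 15349 genes. Without pair 3, 8 of 30 members were called, beside 1389 of 15192 genes. Without pair 4, 4 of 30 were called, beside 971 of 15144 genes. Of those 4, 3 were among the 12 (GADD45A, PMAIP1 and GDF15) and RPS27L was not.

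The shift was small and uneven. The median log2 fold change of the members was −0.14 on group alone, beside −0.01 over all genes tested, and 23 of 30 (76.7%) were below 0, beside 51.3% of all genes. Within pairs, 12 of 30 members were lower in 4 of 4 pairs, where 16.9% of all genes were, and 3 were higher in 4 of 4, where 18.8% were. Among the 12, SUSD6 was all but level in pair 3 (−7.52e-05) on the log2 scale. The miR-155OE libraries lay wholly below the CTRL libraries in 7 members (23.3%, beside 5.25% of all genes) and wholly above in 2 (6.67%, beside 6.16%). Among the 7, GDF15 was all but tied, with a lowest CTRL value of 142.735 CPM and a highest miR-155OE value of 142.688 CPM. An unadjusted p under 0.05 was found in 17 of 30 members (56.7%) and in 19.3% of all genes.

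**Figure D1:**
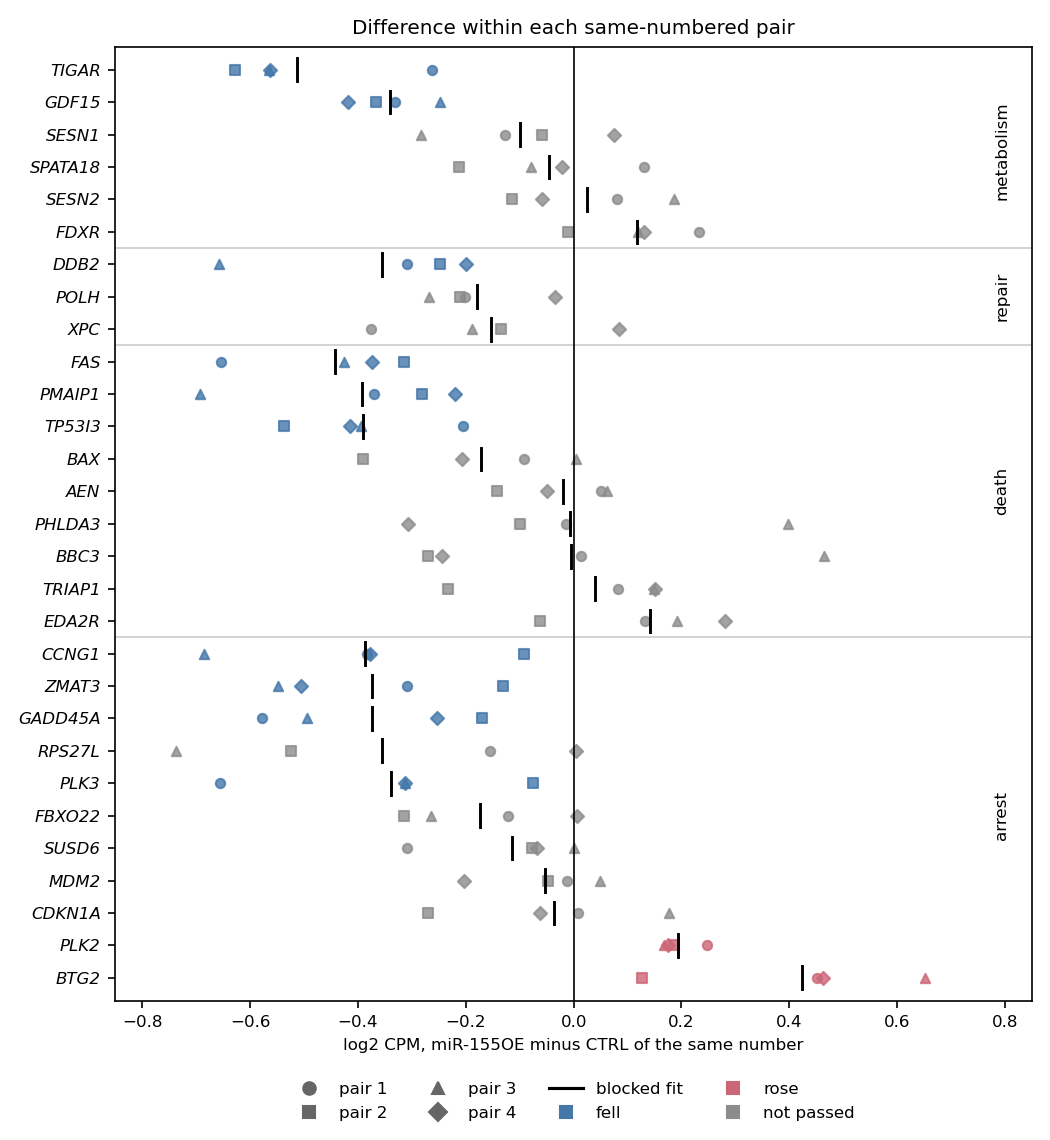
Difference in log2 CPM between the miR-155OE and CTRL libraries of the same number, for 29 members in 4 roles, with 1 symbol for each pair, a black tick for the blocked fit, and colour for the call in that fit. TP53I11, whose differences of 0.26 to 2.60 exceed the axis, is left out. The 10 genes in blue lie left of 0 in 4 of 4 pairs, and BTG2 and PLK2 lie right of 0 in 4 of 4.

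Among the arrest genes, GADD45A (ENSG00000116717, GRCh38 chromosome 1, 67685061 to 67688338), whose product slows the G2 phase and assists repair, had 194, 181, 183 and 187 CPM in CTRL replicates 1 to 4. It had 130, 161, 129 and 157 CPM in miR-155OE replicates 1 to 4. Each of the latter lay below each CTRL value. On group alone it fell by 0.37 on the log2 scale (SE 0.08, edgeR adjusted p = 0.0462), and by 0.37 with the replicate block (SE 0.07, adjusted p = 0.0131). The call on group alone was lost without any 1 library other than miR-155OE replicate 2 (highest adjusted p = 0.128), and with chromosome 8 left out of the fit (adjusted p = 0.0540).

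BTG2 (ENSG00000159388, chromosome 1, 203305491 to 203309602), an antiproliferative cofactor of mRNA deadenylation, moved the other way. It had 153, 186, 154 and 143 CPM in CTRL against 210, 204, 241 and 198 CPM in miR-155OE, with no overlap. It rose by 0.42 on that scale (SE 0.10, edgeR adjusted p = 0.0448), and by 0.42 with the replicate block (SE 0.08, adjusted p = 0.0105). The call on group alone survived the removal of replicate 2 from either group and was lost without any of the other 6 libraries (highest adjusted p = 0.123), and also with chromosome 8 left out (adjusted p = 0.0503).

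PLK2 and PLK3 encode stress-responsive relatives of the mitotic kinase PLK1, and they went in opposite directions. PLK2 (ENSG00000145632, chromosome 5, 58453982 to 58460260) had 170, 191, 185 and 190 CPM in CTRL against 202, 217, 208 and 215 CPM in miR-155OE. PLK3 (ENSG00000173846, chromosome 1, 44800225 to 44805990) had 96.7, 85.6, 82.8 and 93.2 CPM in CTRL against 61.3, 81.2, 66.7 and 75.0 CPM in miR-155OE. The groups did not overlap for either gene. With the replicate block PLK2 rose by 0.19 on the log2 scale (SE 0.05, edgeR adjusted p = 0.0356) and PLK3 fell (−0.34, SE 0.08, adjusted p = 0.0297). On group alone neither passed (adjusted p = 0.129 and 0.0771).

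ZMAT3, an RNA-binding regulator of splicing, and CCNG1, cyclin G1, which recruits a phosphatase to MDM2, fell with the replicate block. ZMAT3 (ENSG00000172667, chromosome 3, 179017223 to 179072279) had 78.4, 80.5, 80.1 and 86.5 CPM in CTRL against 63.3, 73.5, 54.8 and 60.9 CPM in miR-155OE, with no overlap (−0.37, SE 0.07, edgeR adjusted p = 0.0125, and 0.0501 on group alone). CCNG1 (ENSG00000113328, chromosome 5, 163437569 to 163446151) had 44.1, 49.6, 56.6 and 43.9 CPM in CTRL against 33.8, 46.5, 35.2 and 33.8 CPM in miR-155OE. Its miR-155OE replicate 2 lay inside the CTRL range and the other 3 lay below it (−0.39, SE 0.09, adjusted p = 0.0217, and 0.115 on group alone).

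The best known readouts of p53 did not pass in either fit. CDKN1A (ENSG00000124762, chromosome 6, 36676460 to 36687339), which encodes the cyclin-dependent kinase inhibitor p21, had 2137, 2145, 2087 and 2315 CPM in CTRL against 2149, 1778, 2360 and 2217 CPM in miR-155OE. Its values were interleaved between the groups (log2 fold change −0.03, 95% interval −0.25 to 0.19, edgeR adjusted p = 0.906). MDM2 (ENSG00000135679, chromosome 12, 68808176 to 68850686) had 69.7, 73.6, 68.8 and 88.8 CPM in CTRL against 69.1, 71.3, 71.1 and 77.2 CPM in miR-155OE (−0.06, interval −0.25 to 0.13, adjusted p = 0.764). The span of MDM2, introns included, shares 8490 bases with that of CPM (carboxypeptidase M) on the opposite strand. The carboxypeptidase gene averaged 935 reads, beside 2809 for MDM2. It rose with the block (0.39, edgeR adjusted p = 0.0178) and did not pass on group alone (adjusted p = 0.285). No strand setting is given for the counting, so whether reads from the shared bases were assigned to the wrong gene or dropped is not known. The same holds for RPS27L with LACTB, TP53I3 with FAM228B and XPC with LSM3. RPS27L, a ribosomal protein paralog that binds MDM2, stood at 47.6 ± 5.80 and 37.4 ± 5.96 CPM (SD, n = 4 each; adjusted p = 0.142, and 0.0681 with the block). SUSD6, a growth-restraining membrane protein, stood at 56.7 ± 7.78 and 52.1 ± 3.31 CPM (SD, n = 4 each; adjusted p = 0.548).

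**Figure D2:**
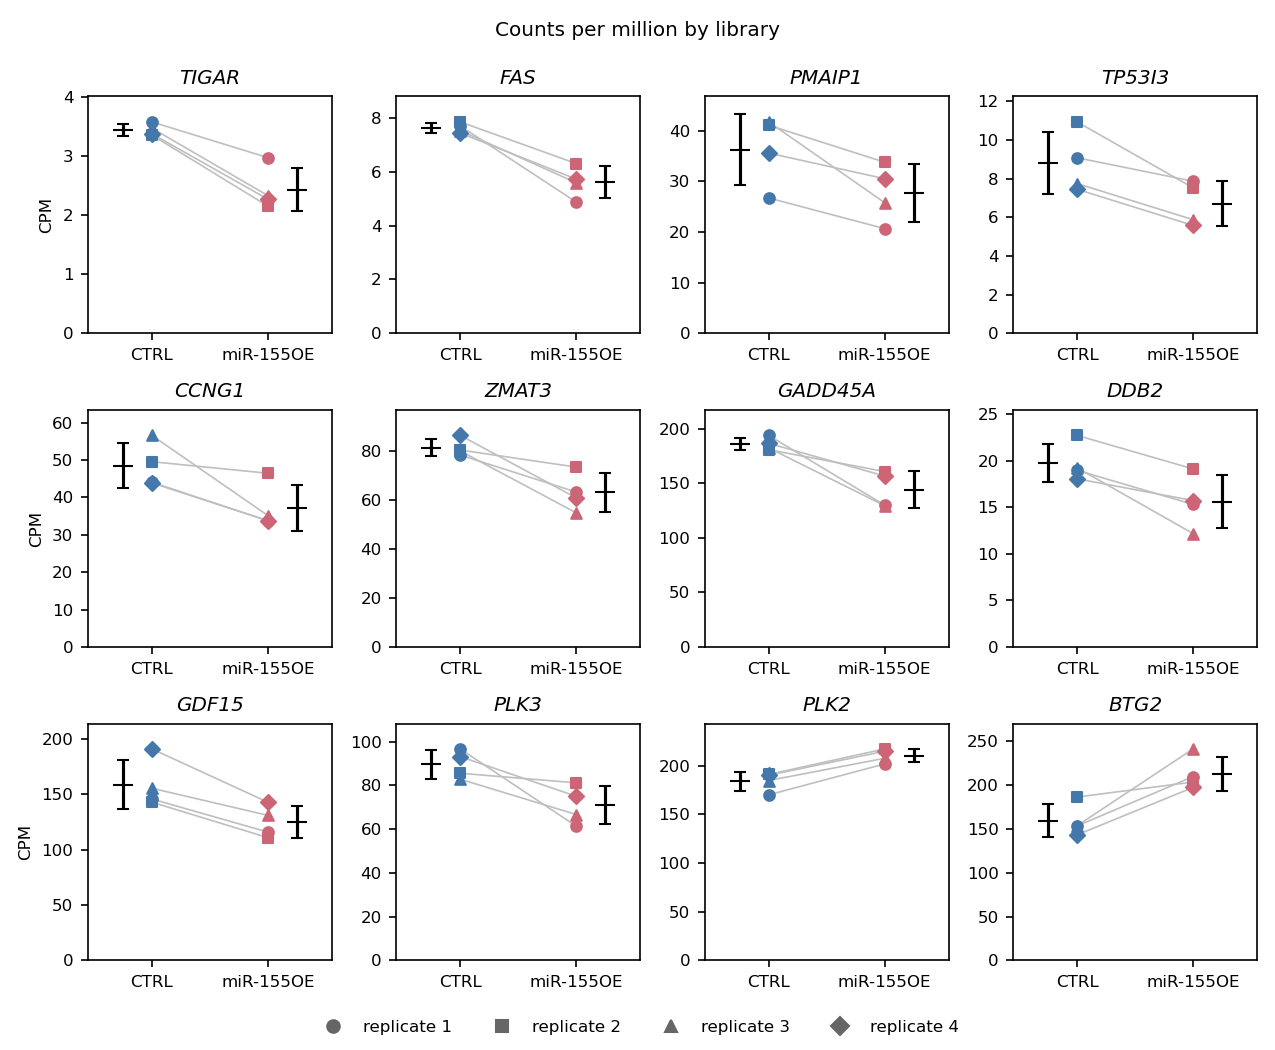
Normalised counts (CPM) of the 12 members called with the replicate block, in CTRL (blue) and miR-155OE (red), 1 symbol for each replicate number, grey lines joining same-numbered libraries, and black bars for the mean and SD of 4 libraries. Every axis starts at 0, and the grey lines slope down in 10 genes and up in PLK2 and BTG2.

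Among the 10 death genes none passed on group alone, and with the replicate block 3 fell and 7 did not pass. That is 30% called with the block, beside 12.6% of all genes. FAS (ENSG00000026103, chromosome 10, 88990582 to 89015785), the receptor that starts apoptosis on binding its ligand, had 7.69, 7.84, 7.52 and 7.43 CPM in CTRL against 4.87, 6.30, 5.58 and 5.72 CPM in miR-155OE. The groups did not overlap, and the CTRL libraries spread by 0.184 CPM (SD, n = 4). FAS fell with the block by 0.44 on the log2 scale (SE 0.10, edgeR adjusted p = 0.0233) and stood just outside the threshold without it (adjusted p = 0.0511). ACTA2, whose span overlaps that of FAS on the opposite strand, stood at −0.33 (adjusted p = 0.263). How reads from the 758 bases shared by the spans were counted is not known.

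PMAIP1 or NOXA (ENSG00000141682, chromosome 18, 59899948 to 59904306), a BH3-only protein that neutralises MCL1, had 26.7, 41.1, 41.7 and 35.6 CPM in CTRL against 20.7, 33.8, 25.8 and 30.5 CPM in miR-155OE. Levels overlapped between the groups, but each miR-155OE library lay below its same-numbered CTRL library, by 0.22 to 0.69 on the log2 scale. TP53I3 (ENSG00000115129, chromosome 2, 24077433 to 24085861), a quinone oxidoreductase tied to oxidative stress, had 9.08, 10.9, 7.75 and 7.46 CPM in CTRL against 7.87, 7.53, 5.88 and 5.58 CPM in miR-155OE, again with overlap. Both fell with the block (log2 fold change −0.39 for each, edgeR adjusted p = 0.0166 for PMAIP1 and 0.0295 for TP53I3) and did not pass on group alone (adjusted p = 0.238 and 0.208).

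The other 6 death genes with more than a few reads did not pass in either fit. BAX, which forms the pore in the outer mitochondrial membrane, had 52.0, 62.4, 49.4 and 53.6 CPM in CTRL against 48.7, 47.6, 49.5 and 46.4 CPM in miR-155OE (−0.18, edgeR adjusted p = 0.248). BBC3 (PUMA), a BH3-only activator of BAX, stood at 10.8 ± 1.38 and 10.7 ± 1.13 CPM (SD, n = 4 each; log2 interval −0.27 to 0.25). PHLDA3, which restrains AKT, stood at 186 ± 22.2 and 185 ± 24.0 CPM and the exonuclease gene AEN at 34.0 ± 3.24 and 33.6 ± 3.94 CPM (SD, n = 4 each). EDA2R, a TNF receptor family member, and TRIAP1, an inhibitor of apoptosis, had log2 fold changes of 0.15 and 0.05. Neither passed (adjusted p = 0.617 and 0.881).

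TP53I11, a membrane protein gene of little-known function, was nearly silent, with 5, 15, 5 and 5 reads in CTRL and 25, 26, 34 and 6 reads in miR-155OE. It passed the filter on low counts through miR-155OE replicates 1 to 3 and CTRL replicate 2. Replicate 2 was the highest of CTRL and replicate 4 the lowest of miR-155OE, and the ranges overlapped. The log2 fold change of 1.66 (SE 0.58) did not pass on group alone (edgeR adjusted p = 0.146) or with the block (adjusted p = 0.0544).

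The 3 repair genes serve nucleotide excision repair (DDB2, XPC) and synthesis past lesions (POLH). DDB2 (ENSG00000134574, chromosome 11, 47214465 to 47239240), the damage sensor of chromatin, had 18.998, 22.8, 19.3 and 18.1 CPM in CTRL against 15.3, 19.1, 12.2 and 15.7 CPM in miR-155OE, overlapping only through miR-155OE replicate 2. It fell with the block (−0.36, SE 0.09, edgeR adjusted p = 0.0313) and not on group alone (adjusted p = 0.182). XPC, the partner sensor, stood at 30.2 ± 2.42 and 27.1 ± 2.72 CPM (SD, n = 4 each; −0.15, adjusted p = 0.404). In gene span POLH overlaps the far more abundant GTPBP2 on the opposite strand (mean of 8806 reads, beside 995 for POLH). How reads there were counted is not known, which makes the value of POLH uncertain.

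Among the 6 metabolic genes 2 fell with the replicate block and 4 did not pass (33.3% called, beside 12.6% of all genes). GDF15 (ENSG00000130513, chromosome 19, 18374731 to 18389176), a secreted stress hormone, had 146, 143, 155.3 and 191 CPM in CTRL against 116, 111, 131 and 143 CPM in miR-155OE. Within pairs it was lower by 0.33, 0.37, 0.25 and 0.42 on the log2 scale, an even shift. GDF15 had the lowest blocked p of the members (−0.34, SE 0.05, edgeR adjusted p = 0.00480, and 0.119 on group alone). It was the only member that stayed past the threshold with any 1 of the 4 pairs left out (highest adjusted p = 0.0408).

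TIGAR (ENSG00000078237, chromosome 12, 4307763 to 4354593), a phosphatase that turns sugar from glycolysis to the pentose phosphate pathway, had 3.58, 3.36, 3.47 and 3.38 CPM in CTRL against 2.97, 2.16, 2.33 and 2.27 CPM in miR-155OE, without overlap. It fell with the block (−0.51, SE 0.14, edgeR adjusted p = 0.0455) and not on group alone (adjusted p = 0.0871). The sestrins, which hold back mTORC1 signalling, did not pass. SESN1 had 16.3 ± 1.00 and 15.3 ± 1.66 CPM and SESN2 140 ± 19.9 and 143 ± 26.6 CPM (SD, n = 4 each; adjusted p = 0.648 and 0.932). FDXR, the ferredoxin reductase of mitochondria (0.12, adjusted p = 0.687), and SPATA18, a factor of mitochondrial quality control (−0.05, adjusted p = 0.782), did not pass.

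Levels can be set side by side only per length, as reads per kilobase of the gene length listed in the file and scaled to 1 total in every library. On that scale CDKN1A led in CTRL at 2034 ± 92.8, followed by GADD45A at 257 ± 9.44, GDF15 at 217 ± 28.7, PHLDA3 at 169 ± 21.9 and BTG2 at 165 ± 21.0 (SD, n = 4). MDM2 stood at 16.2 ± 1.95. The lowest were FAS at 5.12 ± 0.182, TIGAR at 2.45 ± 0.0806 and TP53I11 at 0.0789 ± 0.0620. Members that fell with the block were thus spread from the second to the last but one of the 30 places. The listed lengths are long for some genes, such as MDM2 (13284 bases) and RPS27L (9127 bases). Where the transcripts present are shorter than that, the level is understated, so the places are approximate.

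**Figure D3:**
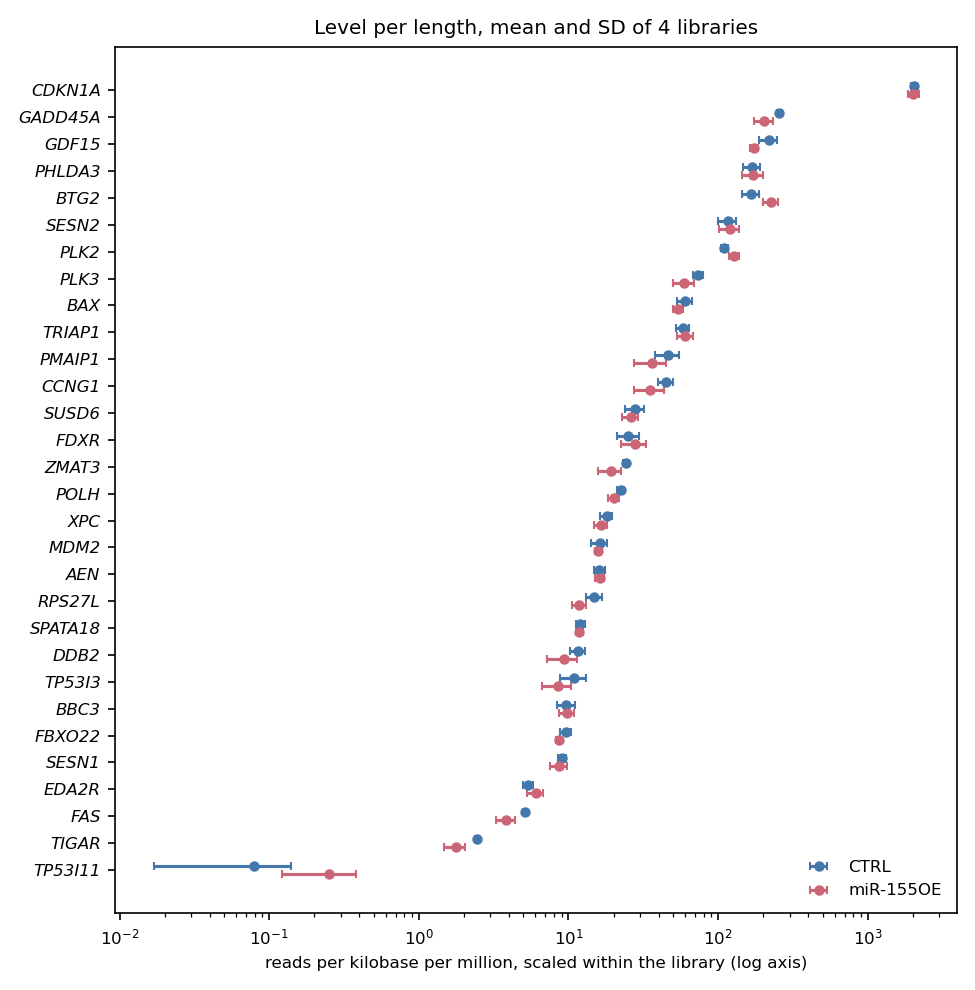
Mean level per length of each of the 30 members in CTRL (blue) and miR-155OE (red) on a log axis, with bars for the SD of 4 libraries. CDKN1A stands highest, at 2034 in CTRL and 2017 in miR-155OE, and TP53I11 lowest, at 0.0789 and 0.250.

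Among the 12 members called with the block, miR-155OE replicate 2 was the library of its group closest to the CTRL mean in 7, and its pair showed the smallest difference in 6. Over all 30 members it did not stand out in these counts. It was closest in 9, against 10, 1 and 10 for replicates 1, 3 and 4, and its pair was smallest in 9, against 7, 4 and 10. It also had the lowest KRT1 of the miR-155OE libraries. On the first principal component of log2 CPM over all genes tested, miR-155OE replicate 2 stood at −1.45. The others of its group stood at 21.4 to 43.2 and CTRL at −29.0 to −8.93. In pair 2, 27 of 30 members were lower, against 19, 17 and 20 in pairs 1, 3 and 4. The median difference of the 10 that fell was −0.35, −0.27, −0.52 and −0.38 in pairs 1 to 4. Without miR-155OE replicate 2, the test on group alone called 7 of 30 members, of which 6 fell and 1 rose. Beside them it called 1274 of the 15475 genes tested in that fit.

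**Figure D4:**
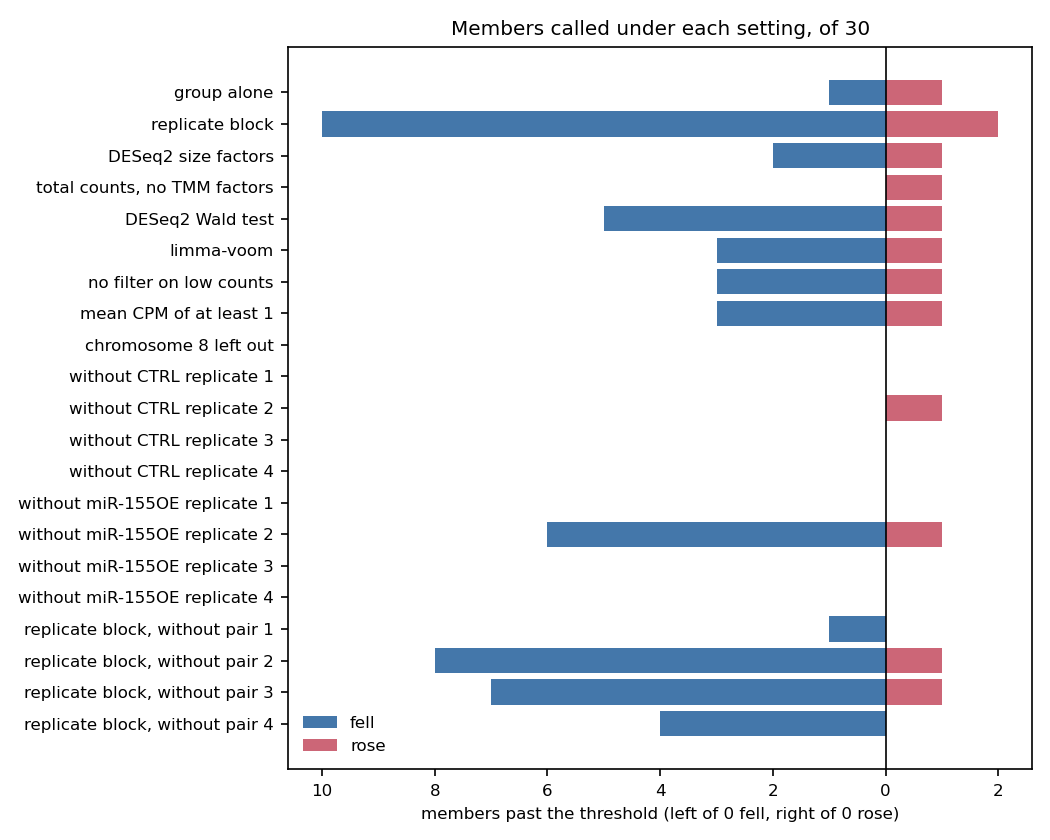
Number of the 30 members past the threshold under each setting, those that fell to the left of 0 and those that rose to the right. The fit on group alone calls 1 and 1, the replicate block 10 and 2, and the blocked fit without pair 1 calls 1.

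The authors' deposited table called 6 of the 30 members. It had PLK3, GADD45A, ZMAT3, FAS and TIGAR lower and BTG2 higher, and it called 4.73% of the 25529 genes it lists. Those are more genes than the 15135 tested here, so that share is not like for like. DESeq2's Wald test, run here, called 6 members and 1200 of the 17052 genes given an adjusted p. For GADD45A the authors' deposited table gave a log2 fold change of −0.36 and an adjusted p of 0.00499.

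Other genes of the pathway were read from lists without chromosome 8 genes and without the 30 members. For all genes tested, the shares called were 3.22% on group alone and 12.6% with the block, and 19.3% had an unadjusted p under 0.05. Of 23 regulators of p53, none passed on group alone (edgeR), 5 had an unadjusted p under 0.05, and with the block 4 rose and 1 fell. These are shares of 21.7% for the unadjusted p and 21.7% with the block. The median log2 fold change of the regulators on group alone was 0.09, beside −0.01 over all genes tested. In 4 of 4 pairs, 8 of the 23 were higher and 0 lower, where 18.8% and 16.9% of all genes were. The lowest p values belonged to USP7, the deubiquitinase of MDM2 and p53 (126 ± 10.5 and 160 ± 13.9 CPM), SIRT1, a deacetylase of p53 (29.8 ± 2.58 and 37.8 ± 3.26 CPM), and TP73, a p53 relative (6.39 ± 1.01 and 9.19 ± 1.47 CPM; SD, n = 4 each). All of these rose with the block (adjusted p = 0.00403, 0.00718 and 0.00883). TP63, added after its values were seen, had a log2 fold change of 0.00 on group alone (edgeR adjusted p = 0.996).

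Of 53 further p53 targets tested, 1 rose, 2 fell and 50 did not pass on group alone, with a median log2 fold change of −0.07. With the block 2 rose and 9 fell. The shares were 5.66% on group alone, 20.8% with the block and 20.8% for an unadjusted p under 0.05, the last near that of all genes. The riser was UNC5B, a netrin receptor that can trigger death (113 ± 13.3 and 231 ± 63.4 CPM, SD, n = 4 each, log2 fold change 1.03, edgeR adjusted p = 0.0154). IKBIP fell (14.5 ± 0.592 and 8.99 ± 2.15 CPM, −0.69, adjusted p = 0.0367; SD, n = 4 each).

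Cell cycle genes that p53 lowers through p21 were read from a list of 40, of which 19 had enough reads to be tested. None passed on group alone (edgeR), 5 had an unadjusted p under 0.05, and with the block 1 rose and 3 fell (21.1% called). CDC20, the activator of the anaphase complex, rose (0.83, adjusted p = 0.00890), while separase ESPL1 (−0.89, adjusted p = 0.0162) and thymidylate synthase TYMS (−0.43, adjusted p = 0.0203) fell. The integrated stress response, which also drives GDF15, SESN2 and PMAIP1, had 20 tested genes. None passed on group alone, 3 had an unadjusted p under 0.05, and with the block 2 rose and 1 fell. That is 15% called, near the share of all genes. The median log2 fold change on group alone was 0.12, beside −0.01 over all genes tested. In 4 of 4 pairs, 9 of the 20 were higher and 3 lower, where 18.8% and 16.9% of all genes were. Asparagine synthetase ASNS stood at −0.48 (edgeR adjusted p = 0.101), the secreted hormone STC2 at 0.31 (adjusted p = 0.207) and the lipoprotein receptor VLDLR at −0.19 (adjusted p = 0.234) on group alone. STC2 rose with the block (adjusted p = 0.0119).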

How the data were processed

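Per the submitters' processing notes, HISAT2 2.0.5, featureCounts 1.5.0-p3, DESeq2 and GRCh38 were used. Strand setting, options and annotation release are not given in the sources used here. The raw counts that the authors deposited hold 1 row for each Ensembl gene, with names and positions beside them. In the authors' other table, the normalised signal of each library was not analysed here, and its calls were used through the authors' log2 fold change with the authors' p-value and adjusted p-value.

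Counts were fitted with edgeR 4.0.16 under R 4.3.3. The filterByExpr step left 15135 genes, followed by TMM scaling, the quasi-likelihood F test on group, and Benjamini-Hochberg adjustment over all genes tested at 0.05. CPM uses TMM-scaled library sizes, and log2 CPM a prior count of 2. Each SE comes from the fold change and its F statistic, so SE and 95% interval restate the test. Alternatives used limma 3.58.1 (voom) and DESeq2 1.42.0. The fitting step was run on simulated counts that held no effect of the replicate number, so that run could not test the pairing.

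To check the pairing, each library's deviation from its group mean was taken over 7057 genes whose log2 CPM averaged 4 or more. Same-numbered libraries correlated at 0.636 (number 1), 0.540 (number 2), 0.195 (number 3) and 0.643 (number 4). The support is weakest for number 3: CTRL replicate 3 correlated more closely with miR-155OE replicate 4 (0.243), and miR-155OE replicate 3 with CTRL replicate 4 (0.458). Because all 4 exceeded 0.1, numbers were used as pairs, though the labels do not say what a number shares. That limit does not single out same numbers. CTRL replicate 1 with miR-155OE replicate 2 (0.319) and CTRL replicate 2 with miR-155OE replicate 1 (0.280) also exceeded it. Numbers 1 or 2 against 3 or 4 gave negative values (−0.620 to −0.124). Whether libraries share a number or a set of numbers (1 and 2, 3 and 4) cannot be told from these values. The members, their roles and all lists were chosen with earlier results of these data known. All 30 members are named, with values for those past the threshold in either fit, and from each other list the 3 genes of lowest p. Results for some genes that this rule would name are not reported here. Genomic positions of the members in the count file matched GENCODE release 29 in 30 of 30.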

Additional observations from a re-analysis of the deposited data

Results flagged for a closer look

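In 60 sets of 4 libraries (30 members in each group), 1 library stood far from the other 3 in 3 sets. Chance gives about 1 in 20, so 3 of 60 is no more than chance gives. For CCNG1, miR-155OE replicate 2 (46.5 CPM) stood above the others (33.8 to 35.2 CPM), and its gap took 0.890 of the range. For TP53I11, CTRL replicate 2 (0.434 CPM) stood above the others with a gap of 0.845 of the range, and miR-155OE replicate 4 (0.164 CPM) below the others with a gap of 0.8291. TP53I11 rests on 5 to 34 reads per library.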

How the results depend on the processing

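Of the 30 members, 2 passed on group alone, 12 with the replicate block, 3 with DESeq2 size factors, 1 with total counts, 6 with DESeq2's Wald test, 4 with limma-voom, 4 without a filter, 4 when a mean of 1 CPM was required, and 0 with chromosome 8 left out (edgeR). For all genes the counts, in the same order, were 488, 1908, 517, 482, 1200, 503, 927, 476 and 339. With the block, 5 regulators, 11 further targets, 4 cell cycle genes and 3 stress genes passed. Leaving out 1 library gave 0 to 7 members, 125 to 1274 genes, 0 to 3 regulators, 0 to 9 further targets and 0 to 2 cell cycle genes, and leaving out 1 pair from the blocked fit gave 1 to 9 members and 623 to 2059 genes. The count of 7 came without miR-155OE replicate 2. Without pair 1 only GDF15 passed, and without pair 4 only GADD45A, RPS27L, PMAIP1 and GDF15. PLK2, TP53I3 and TIGAR lost the call without any 1 pair. No called member changed sign. Log2 fold changes of uncalled members crossed 0 when 1 library was left out: CDKN1A (−0.0807 to 0.0489), MDM2 (−0.101 to 0.0292), BBC3 (−0.0995 to 0.0357), AEN (−0.0601 to 0.0561), PHLDA3 (−0.0849 to 0.0844), TRIAP1 (−0.0471 to 0.130) and SESN2 (−0.0492 to 0.154). With the block and 1 pair left out the same was seen for CDKN1A (−0.107 to 0.0409), BBC3 (−0.167 to 0.0820), AEN (−0.0455 to 0.0208), PHLDA3 (−0.139 to 0.0978), SESN2 (−0.0287 to 0.0699) and SPATA18 (−0.10 to 0.0081). BBC3 also crossed with limma-voom (0.0116), and PHLDA3 with total counts (0.0012) and DESeq2 (7.2e-05). The cause was not tested.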
